A study of Mus musculus with 28 samples.

Results

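The genes described here are 7 noncoding host genes of small RNAs, found by their symbols in a table of 25301 genes: Zfas1, Mir17hg, Gas5, Snhg1, Snhg6, Snhg8 and Snhg12. They were chosen from values of these same libraries, because Zfas1 and Mir17hg were lower with lactate than with PBS at day 3, so the day 3 values, with lactate or PBS, are given below as a description with no test. All 7 had a row, and all 7 passed the filter on low values, which 11960 genes passed. That filter asked for at least 1 FPKM, a count of fragments scaled by the length of the gene and by the library's fragments, in 3 or more libraries.

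A snoRNA host gene is transcribed as 1 long RNA whose introns release small nucleolar RNAs. Box C/D snoRNAs guide 2′-O-methylation of ribosomal RNA and box H/ACA snoRNAs guide its pseudouridylation, each inside a protein particle (a snoRNP). The spliced exons that remain are noncoding, and for several of these genes, Gas5 the best known, they are cleared by nonsense-mediated decay after ribosomes engage them. Many host genes of this kind start transcription at a run of pyrimidines, the 5′ terminal oligopyrimidine feature they share with ribosomal protein genes. Mir17hg is different: its transcript is the precursor of the miR-17-92 cluster of microRNAs, whose transcription is driven by Myc and E2f factors and whose targets include Bcl2l11, Cdkn1a and E2f1.

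The 28 libraries came from pancreatic macrophages, sorted by fluorescence, of WT mice of the strain C57BL/6J. The model is one of recovery from acute pancreatitis caused by caerulein, a secretagogue. Libraries labelled NC (3 libraries) carry no further description, so what NC stands for is not stated in the labels. Whether the NC mice received caerulein cannot be told here. Day 0 has 5 libraries. Day 1 has 6 libraries labelled AP+PBS and 6 labelled AP+Lac, and day 3 has 4 of each. They are called PBS and lactate groups below; the dose, the route, the ages of the mice and the sorting markers are not in the labels. Nothing in the labels says whether replicates came from separate mice, so the p-values measure only the spread between libraries.

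The microRNAs carried by the Mir17hg cluster are shown because the results name the precursor only by its host symbol. The mature sequences below are from RefSeq (GRCm38.p6, chromosome 14, plus strand), 5′ to 3′, with the seed, bases 2 to 8, in capitals.
mmu-miR-17-5p: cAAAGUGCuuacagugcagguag
mmu-miR-20a-5p: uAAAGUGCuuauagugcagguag
mmu-miR-18a-5p: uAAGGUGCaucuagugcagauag
mmu-miR-19a-3p: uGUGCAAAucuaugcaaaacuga
mmu-miR-19b-3p: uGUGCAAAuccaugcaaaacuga
mmu-miR-92a-3p: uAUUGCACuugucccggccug
These 6 microRNAs carry 4 seeds. miR-17-5p and miR-20a-5p share 1 seed, and miR-19a-3p and miR-19b-3p share another.

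The start sites of 4 snoRNA hosts are shown because these windows held a run of pyrimidines at the start. They were thus picked by that pattern and not by how the genes moved. Each line covers 40 bases before and 20 bases from the RefSeq start (GRCm38.p6). Capitals mark a TATANA match between 40 and 16 bases before the start and a run of at least 6 bases of only C or T that touches the window from 5 bases before to 15 bases after it; both patterns were chosen after the sequences were read.
Gas5, chr1:161035126-161035185, plus strand: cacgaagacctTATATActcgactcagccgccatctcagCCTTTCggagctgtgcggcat
Snhg8, chr3:123508317-123508376, minus strand: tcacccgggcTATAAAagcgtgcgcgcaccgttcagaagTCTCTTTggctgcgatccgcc
Snhg12, chr4:132308638-132308697, plus strand: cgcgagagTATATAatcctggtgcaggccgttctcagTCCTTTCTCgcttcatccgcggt
Snhg1, chr19:8723447-8723506, plus strand: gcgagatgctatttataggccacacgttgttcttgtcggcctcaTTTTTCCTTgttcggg
Gas5, Snhg8 and Snhg12 held both patterns, with a pyrimidine run of 6, 7 and 9 bases. Snhg1 held a run of 9 bases and no TATANA match in that stretch. Of 32851 RefSeq start windows of 300 bases, 3.08% held TATANA on the gene's strand in that upstream stretch, 17.6% held such a run at the start and 0.658% held both. TATANA anywhere in the window on either strand was found in 24.7%. The E-box CACGTG, which Myc binds, was in 7.15% of windows and in none of the 7 windows of 6 of the genes (Gas5 has 2 windows). The window of Zfas1 and the other window of Gas5 held neither pattern, Snhg6 had no entry, and the RefSeq record of Mir17hg begins inside the microRNA cluster, so its window is not a promoter.

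What the FPKM values count can be read from the table itself. In the 23500 rows where the steps between values could be read, the values fall on whole multiples of 1 fragment, and the spacing gives the length that was used for the row; the other 1801 rows had a value in 1 library or none. Mir17hg had a row length of 2339 bases, equal to its RefSeq span, and only 1 of the 6 hairpins of the cluster, that of miR-92a-1, lies wholly inside it. A row that follows this record counts RNA around and downstream of the last hairpin and leaves out the upstream precursor. Snhg8 had 785 bases, also equal to its whole span, so Snora24, the snoRNA it hosts, falls inside the counted length. The other 5 rows were much shorter than the genes' spans: 738 of 2929 bases for Zfas1, 620 of 3939 for Gas5, 476 of 2840 for Snhg1, 407 of 2094 for Snhg6 and 606 of 2347 for Snhg12. RefSeq places 8 snoRNA genes inside Gas5, 8 inside Snhg1, 4 inside Snhg12, 3 inside Zfas1 and 1 each inside Snhg6 and Snhg8. No snoRNA or microRNA of these hosts has a row in the table, so the small RNAs have no values of their own. In the Snhg8 and Mir17hg rows, fragments from Snora24 and the miR-92a-1 hairpin would fall inside the counted length.

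Depth was close to even, with 33273246 to 41060443 fragments in genes per library as recovered from the FPKM steps. Macrophage markers were high throughout, with a mean log2(FPKM + 1) between 7.38 and 9.01 over 12 markers in every library. Markers of other cells were present too and moved between groups: the mean level of 12 acinar markers ran from 6.87 to 7.54 in NC, 3.35 to 4.12 at day 0, 3.95 to 6.08 in day 1 PBS and 5.59 to 8.19 in day 3 PBS. No marker of the B and plasma, T and NK, acinar, dendritic or fibroblast lists was at 0 in all libraries of a group. Within day 1, replicates 5 and 6 of both groups stood apart, with a mean fibroblast marker level of 1.72 to 2.00 against 3.34 to 4.75 in replicates 1 to 4, so results that use day 1 are also given without them where that changes a call.

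Zfas1, antisense to the start of Znfx1 and host of the Snord12 snoRNAs, had 41.8, 51.3 and 38.2 FPKM in NC and 32.3, 28.7, 23.4, 33.1 and 25.4 at day 0. The day 1 PBS libraries ran from 51.3 to 117 with a median of 68.4, and the day 1 lactate libraries from 71.7 to 107 with a median of 90.9. In day 3 PBS it had 129.7, 121, 68.9 and 142, and in day 3 lactate 34.3, 48.7, 54.3 and 51.1. Every day 0 library was below every NC library, and the lowest day 3 PBS library, replicate 3, lay among the day 1 values. The 4 day 3 lactate libraries lay below every day 3 PBS library and around the NC values. Ordered by mean, Zfas1 went from day 0 (28.6 ± 4.22, SD, n = 5) through NC (43.7 ± 6.81, n = 3), day 3 lactate (47.1 ± 8.85, n = 4), day 1 PBS (73.9 ± 22.5, n = 6) and day 1 lactate (90.3 ± 12.9, n = 6) to day 3 PBS (115 ± 32.1, n = 4). Of these neighbours in the order, only day 0 and NC did not overlap.

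Mir17hg was the scarcest of the 7. It had 5.15, 4.11 and 4.26 FPKM in NC, and 1.60, 1.51, 1.19, 2.22 and 0.823 at day 0. Day 1 PBS ran from 1.32 to 3.47 with a median of 2.25, and day 1 lactate from 2.10 to 4.96 with a median of 4.17. Day 3 PBS had 7.70, 10.99, 5.84 and 7.10, against 2.27, 3.28, 3.85 and 2.54 in day 3 lactate. Day 3 PBS was above all libraries of every other group. Day 3 lactate lay below every NC library, which no other of the 7 genes showed. Only NC and day 3 PBS, at means of 4.50 ± 0.561 (SD, n = 3) and 7.90 ± 2.19 (n = 4), were neighbours in the order without overlap.

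Gas5, whose introns carry Snord47 and other box C/D snoRNAs, was the most abundant by FPKM. It had 150.3, 157 and 149.7 FPKM in NC and 81.8, 83.0, 56.8, 98.9 and 72.9 at day 0. Day 1 PBS ran from 141 to 222 with a median of 180.3, and day 1 lactate from 116 to 279 with a median of 231. Day 3 PBS had 302, 424, 257 and 297, and day 3 lactate 137, 162, 177 and 201. The highest of all 28 values was day 3 PBS replicate 2, which also had the highest acinar marker level, 8.19. The same library had the highest dendritic marker level, 4.64, and the lowest macrophage marker level, 7.38. Day 0 was the only group apart from its neighbour in the order. Gas5 made up between 40.2% and 46.5% of the summed FPKM of the 7 genes in the group means.

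Snhg1, host of Snord22 and other box C/D snoRNAs, had 55.3, 64.6 and 56.4 FPKM in NC and 37.9, 41.6, 22.8, 48.2 and 33.4 at day 0. The day 1 PBS libraries ran from 59.5 to 102 with a median of 75.7, and the day 1 lactate libraries from 37.3 to 125 with a median of 99.7. The 4 day 3 PBS libraries had 119.5, 189, 124 and 130.4, and day 3 lactate 65.8, 83.8, 71.0 and 75.7. The day 3 lactate libraries lay between NC and day 3 PBS, overlapping neither. The 2 lowest day 1 lactate libraries were replicates 5 and 6, at 68.9 and 37.3.

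Snhg6, host of Snord87, varied least between NC and day 0. Its NC values were 14.2, 18.1 and 17.8 FPKM and its day 0 values 19.4, 17.5, 8.49, 16.8 and 18.0. Day 1 PBS ran from 18.0 to 33.0 with a median of 21.6, and day 1 lactate from 15.2 to 32.3 with a median of 29.2. Values in day 3 PBS were 36.4, 44.9, 22.1 and 40.1, and in day 3 lactate 10.9, 21.0, 20.9 and 19.9. The groups overlapped at every step of the order. The gap between the day 3 groups was narrow, since the lowest PBS library was at 22.1 and the highest lactate library at 21.0.

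Snhg8, host of the box H/ACA snoRNA Snora24, had 32.1, 38.5 and 31.2 FPKM in NC and 26.2, 27.8, 12.2, 30.2 and 21.1 at day 0. Day 1 PBS ran from 43.7 to 61.6 with a median of 48.7, and day 1 lactate from 21.5 to 59.5 with a median of 51.1. Day 3 PBS had 48.7, 85.1, 39.6 and 57.1, and day 3 lactate 17.9, 30.6, 36.5 and 31.5. Day 1 PBS had already reached the range of day 3 PBS. Snhg8 was the only gene of the 7 whose day 3 lactate libraries all lay below all day 1 PBS libraries.

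Snhg12, host of Snora16a, Snora44, Snora61 and Snord99, had 20.1, 22.7 and 26.1 FPKM in NC and 10.3, 12.3, 7.0, 19.2 and 9.65 at day 0. Day 1 PBS ran from 23.6 to 41.8 with a median of 29.0, and day 1 lactate from 18.9 to 45.7 with a median of 31.8. Day 3 PBS had 45.9, 56.2, 46.4 and 44.1, and day 3 lactate 18.6, 22.7, 24.5 and 27.2. The day 3 PBS libraries were tight, and the lowest of them lay above every day 1 PBS library. Day 3 lactate lay across the NC range.

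**Figure D1:**
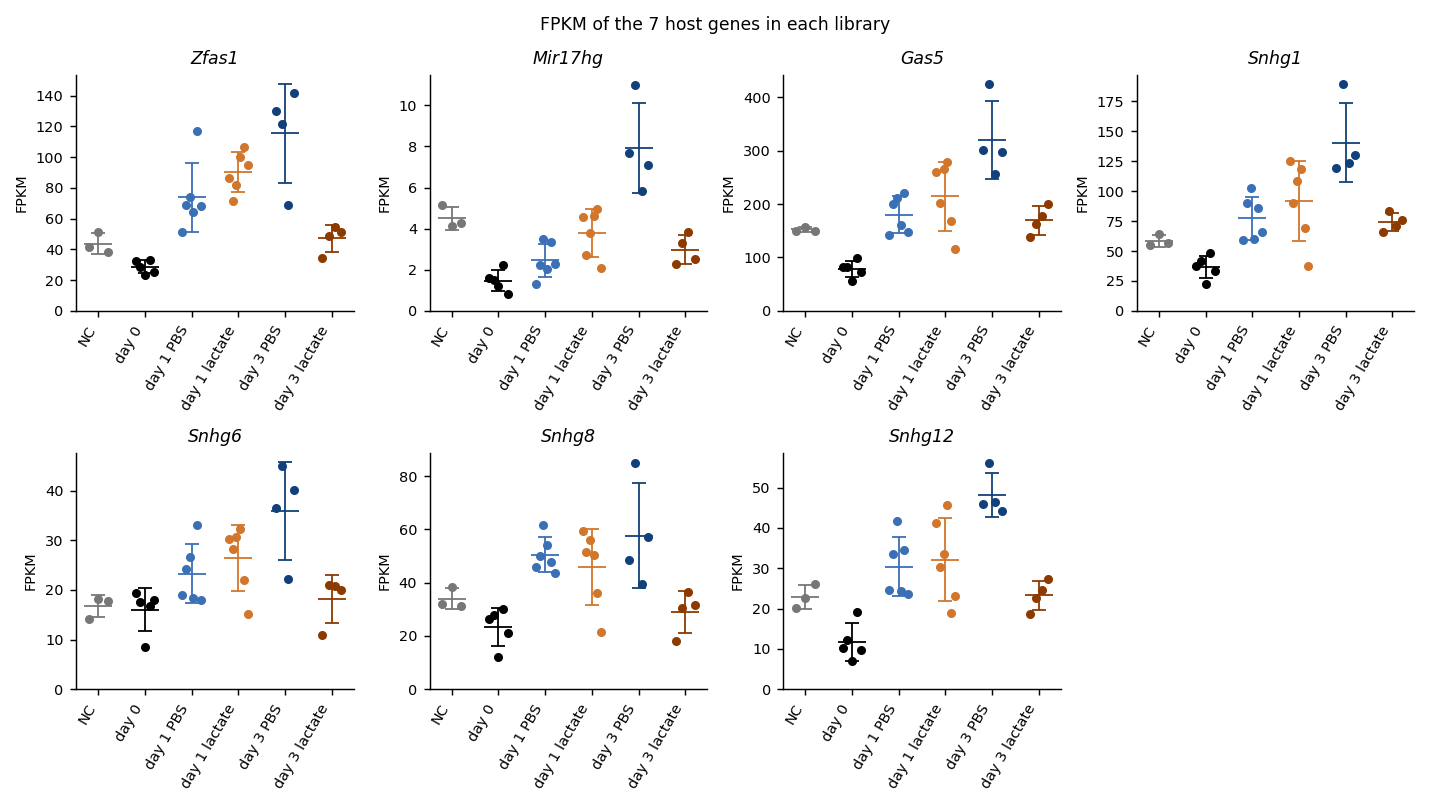
FPKM of each of the 7 host genes (vertical axis, linear from 0) in the 28 libraries, by group along the horizontal axis. Points are libraries and bars are the mean ± SD; in every panel day 3 PBS has the highest mean and all 4 day 3 lactate libraries lie below all 4 day 3 PBS libraries.

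Day 0 was first set against NC. Of the 7 host genes, 5 were lower at day 0 by limma on log2(FPKM + 1) with Benjamini-Hochberg adjustment over all genes (adjusted p under 0.05), where 41.4% of all genes tested were called lower. Mir17hg fell by 1.18 on the log2 scale (SE 0.23, adjusted p = 9.8e-05), Snhg12 by 0.98 (SE 0.25, adjusted p = 0.0019) and Gas5 by 0.97 (SE 0.23, adjusted p = 9.1e-04). Snhg1 fell by 0.70 (SE 0.28, adjusted p = 0.035) and Zfas1 by 0.60 (SE 0.22, adjusted p = 0.021). Snhg8 differed by -0.57 (SE 0.29, adjusted p = 0.091) and Snhg6 by -0.10 (SE 0.27, adjusted p = 0.77), and neither passed the test. The day 0 libraries of 6 of the 7 lay wholly below NC, as did those of 46.6% of all genes. The median over the 7 was -0.70 beside -0.22 over all genes. In libraries from sorted cells, fewer cells of a type and less RNA per cell cannot be told apart, and markers of most other cells were also lower at day 0. Called lower were 11 of 11 B and plasma, 13 of 14 T and NK, 11 of 12 acinar, 10 of 10 dendritic, 4 of 6 endothelial, 2 of 8 fibroblast and 15 of 16 cell cycle genes. Neutrophil markers went the other way, with 5 of 9 called higher and a median of 1.36, and of 12 macrophage markers 3 were called higher and 3 lower. The part of these in the host genes' levels was not tested.

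The day 0 calls leaned on the scaling and on single libraries. Median-ratio scaling moved the median of all genes by 0.25, changed the split of all genes from 2361 higher and 4948 lower to 4039 and 3530, and kept Mir17hg (-0.98), Gas5 (-0.66) and Snhg12 (-0.69) as calls. Zfas1 was then at -0.30, Snhg1 at -0.40 and Snhg8 at -0.27, and Snhg6 turned to 0.19. Quantile normalization put Mir17hg at -0.63 (adjusted p = 0.025). The call of Snhg1 was lost with no filter on low values (adjusted p = 0.065) and without any 1 of NC replicates 1, 2 and 3 and day 0 replicates 3 and 5 (adjusted p 0.0582 to 0.105), and that of Zfas1 without NC replicate 2 (-0.48, adjusted p = 0.105), which left 3 calls.

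Between day 0 and day 1 PBS all 7 host genes rose, where 43.0% of all genes tested were called higher. Snhg12 rose by 1.34 on the log2 scale (SE 0.21, adjusted p = 7.0e-06), Zfas1 by 1.31 (SE 0.18, adjusted p = 1.4e-06) and Gas5 by 1.19 (SE 0.19, adjusted p = 1.1e-05). Snhg8 rose by 1.12 (SE 0.24, adjusted p = 3.1e-04) and Snhg1 by 1.06 (SE 0.23, adjusted p = 4.2e-04). The smallest rises were those of Snhg6, 0.52 (SE 0.23, adjusted p = 0.046), and Mir17hg, 0.47 (SE 0.19, adjusted p = 0.031), the 2 genes whose groups overlapped. The other 5 did not overlap, as was so in this direction for 31.7% of all genes. The median over the 7 was 1.12 beside 0.19 over all genes. Other cells' markers rose in the same step, with 11 of 11 B and plasma, 14 of 14 T and NK, 9 of 12 acinar, 10 of 10 dendritic, 8 of 8 fibroblast, 1 of 6 endothelial and 16 of 16 cell cycle genes called higher. Neutrophil markers went the other way, with 5 of 9 called lower and a median of -0.53, and of 12 macrophage markers 5 were called higher and 4 lower. Their part in the rise of the host genes was not tested.

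The rises of Mir17hg and Snhg6 were the unsteady ones. Quantile normalization put Mir17hg at -0.0067, and median-ratio scaling at 0.30 (adjusted p = 0.164). Its call was also lost with no filter (adjusted p = 0.062) and without day 0 replicate 3 or 5 or day 1 PBS replicate 3 or 5 (adjusted p 0.0662 to 0.105). Snhg6 lost its call with median-ratio scaling (0.25, adjusted p = 0.305), with quantile normalization (0.43, adjusted p = 0.087) and with no filter (adjusted p = 0.092). It also lost it without day 0 replicate 3 (0.32), day 0 replicate 4 (0.55) or day 1 PBS replicates 2 (0.50), 3 (0.48) or 5 (0.42). With replicates 5 and 6 of both day 1 groups left out, 5 of the 7 were called higher, and all 7 stayed above 0.

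Day 3 PBS was set beside day 1 PBS and NC as a description with no test of the host genes, because the day 3 PBS libraries are among those on which they were chosen. From day 1 to day 3 in PBS the fitted log2 difference was 1.37 (SE 0.20) for Mir17hg, 0.86 (SE 0.25) for Snhg1, 0.82 (SE 0.20) for Gas5, 0.67 (SE 0.22) for Snhg12 and 0.63 (SE 0.19) for Zfas1. It was 0.60 (SE 0.24) for Snhg6 and 0.14 (SE 0.26) for Snhg8. The median of the 7 was 0.67 beside 0.10 over all genes. Of the 7, 4 did not overlap, against 8.31% of all genes in that direction, and nothing is read from this count.

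Over the same step 11 of 12 macrophage markers were called lower, while 11 of 14 T and NK, 10 of 10 dendritic, 6 of 12 acinar, 3 of 11 B and plasma, 2 of 6 endothelial and 1 of 8 fibroblast markers were called higher and 1 of 16 cell cycle genes lower. The median of the neutrophil markers was 0.08. The part of these in the host genes' values was not tested. Day 3 PBS replicate 2 was the library highest in acinar and dendritic markers and lowest in macrophage markers. Without it Snhg1 was at 0.71, Snhg12 at 0.60 and Snhg8 at -0.06.

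Against NC, day 3 PBS differed by 1.34 on the log2 scale (SE 0.23) for Zfas1, 1.22 (SE 0.30) for Snhg1, 1.04 (SE 0.24) for Gas5, 1.04 (SE 0.26) for Snhg12 and 1.02 (SE 0.28) for Snhg6. The difference was 0.70 (SE 0.30) for Snhg8 and 0.67 (SE 0.24) for Mir17hg, and for Mir17hg it ran from 0.51 to 0.78 over the alternative settings. The libraries of all 7 lay above NC without overlap, as did those of 22.0% of all genes, and nothing is read from this count. In the same comparison 10 of 12 macrophage markers were called lower. Called higher were 11 of 14 T and NK, 4 of 8 fibroblast, 2 of 11 B and plasma and 1 of 6 endothelial markers, while 4 of 10 dendritic markers were called higher and 2 lower, and 2 of 12 acinar markers lower. The median was 0.38 for the cell cycle genes and 0.19 for the neutrophil markers. The part of these in the host genes' values was not tested.

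**Figure D2:**
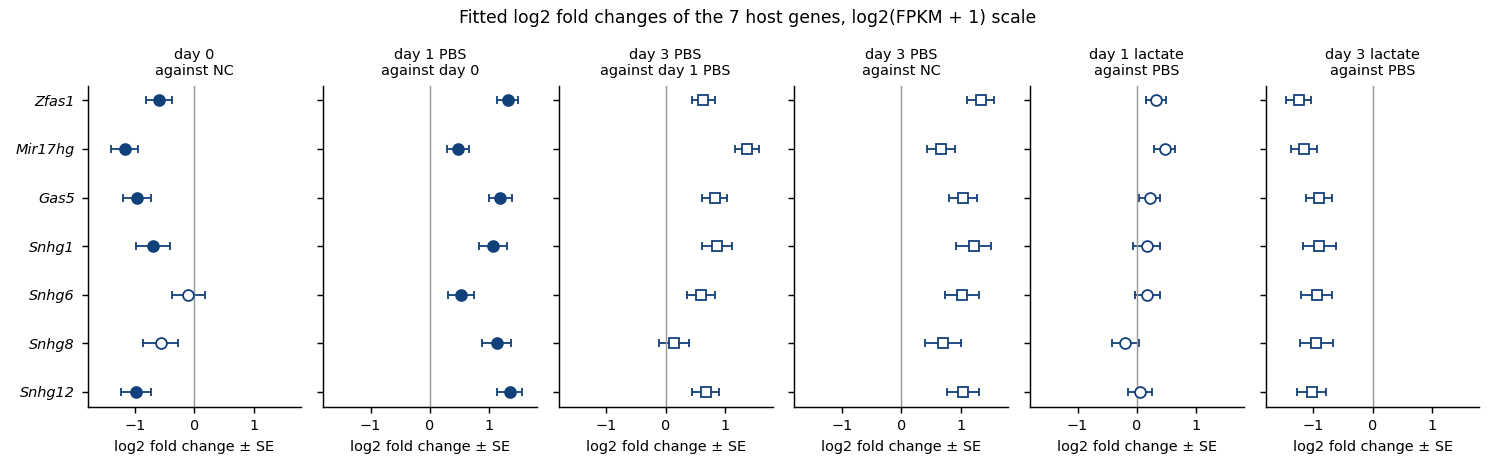
Log2 fold change ± SE (horizontal axes, log2(FPKM + 1) scale) of each host gene in 6 comparisons, 1 panel each. Filled circles passed the adjusted p threshold and open circles did not; open squares mark the 3 comparisons with day 3 PBS, given with no test because the genes were chosen on those libraries. All 7 lie below 0 in the last panel, day 3 lactate against PBS, and above 0 for day 1 PBS against day 0.

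At day 1, lactate and PBS did not differ by the test for any of the 7 host genes: limma called 0, and 1 had an unadjusted p under 0.05, Mir17hg, while 9.72% of all genes were called in either direction. Mir17hg was at 0.47 on the log2 scale (SE 0.18, adjusted p = 0.095), Zfas1 at 0.32 (SE 0.17, adjusted p = 0.25) and Gas5 at 0.21 (SE 0.18, adjusted p = 0.51). Snhg6 was at 0.17 (SE 0.21), Snhg1 at 0.17 (SE 0.22), Snhg12 at 0.05 (SE 0.20) and Snhg8 at -0.20 (SE 0.23), with adjusted p from 0.65 to 0.92. The median was 0.17 beside 0.02 over all genes.

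The replicates of day 1 were not alike. In replicates 1 to 4, Snhg6 ran from 18.4 to 26.7 FPKM with PBS and from 28.2 to 32.3 with lactate, without overlap. In replicates 5 and 6 only the order of its means was the other way, at 25.5 with PBS and 18.6 with lactate. The libraries overlapped, with 33.0 and 18.0 with PBS and 22.1 and 15.2 with lactate. Gas5 had means of 178 with PBS and 251 with lactate in replicates 1 to 4, but 184 and 142 in replicates 5 and 6. Without replicates 5 and 6 of both groups, a choice made after the values were seen, Mir17hg (0.61, adjusted p = 0.027) and Gas5 (0.50, adjusted p = 0.030) were called, and 3420 of all genes were called against 1162. Leaving out day 1 PBS replicate 5 alone called Zfas1 (0.46, adjusted p = 0.042) and Mir17hg (0.54, adjusted p = 0.039), while 1224 of 11954 genes were called higher and 1154 lower. Leaving out day 1 lactate replicate 6 called Mir17hg (0.59, adjusted p = 0.021), while 1133 of 11957 genes were called higher and 1084 lower. Fitted with limma on the day 1 groups alone, the comparison called 0 of all genes, of which 2282 had an unadjusted p under 0.05. Over the same comparison 4 of 12 macrophage markers were called lower with lactate, and 4 of 14 T and NK, 4 of 10 dendritic and 1 of 6 endothelial markers higher. Of the acinar markers 11 of 12 lay below 0, with a median of -0.42, and of the neutrophil markers 8 of 9 lay above 0, with a median of 0.62. The medians of the B and plasma, fibroblast and cell cycle lists were 0.22, 0.01 and 0.08. Their part in the host genes' values was not tested.

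At day 3, in the comparison that chose the genes, all 7 were lower with lactate and none overlapped between the groups; 4.33% of all genes tested were lower without overlap, and nothing is read from this count. On the log2 scale Zfas1 differed by -1.24, Mir17hg by -1.15, Snhg12 by -1.03, Snhg8 by -0.95, Snhg6 by -0.94, and Gas5 and Snhg1 by -0.90 each. The PBS means were 1.89 to 2.65 times the lactate means, and the median log2 value was -0.95 beside 0.02 over all genes. Summed over the 7 genes, the mean was 726 ± 153 FPKM (SD, n = 4) in day 3 PBS and 364 ± 53.4 (n = 4) in day 3 lactate, beside 333 ± 20.5 (n = 3) in NC and 438 ± 84.5 (n = 6) in day 1 PBS. Between the lowest PBS and the highest lactate library the narrowest gap was that of Snhg6, 22.1 against 21.0 FPKM, and the widest relative to its level that of Snhg12, 44.1 against 27.2.

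Set beside the other groups, the day 3 lactate libraries overlapped NC for Zfas1, Gas5, Snhg6, Snhg8 and Snhg12, lay above it for Snhg1 and below it for Mir17hg. They overlapped day 1 PBS for all but Snhg8. The acinar marker level was also lower with lactate at day 3, from 3.80 to 6.44 against 5.59 to 8.19 in PBS, with a median log2 difference of -1.69 over its 12 genes. Cell cycle genes lay the other way, with a median of 0.65 and 16 of 16 above 0, as did 11 of 12 macrophage markers, at 0.38, and 7 of 9 neutrophil markers, at 0.32. T and NK markers lay below 0 for 13 of 14 (median -0.47, 3 without overlap), dendritic markers for 8 of 10 (median -0.25, 2 without overlap) and endothelial markers for 6 of 6 (median -0.44, 1 without overlap). B and plasma markers had a median of 0.13, with 8 of 11 above 0, and fibroblast markers one of 0.05. The part of these in the host genes' difference was not tested.

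**Figure D3:**
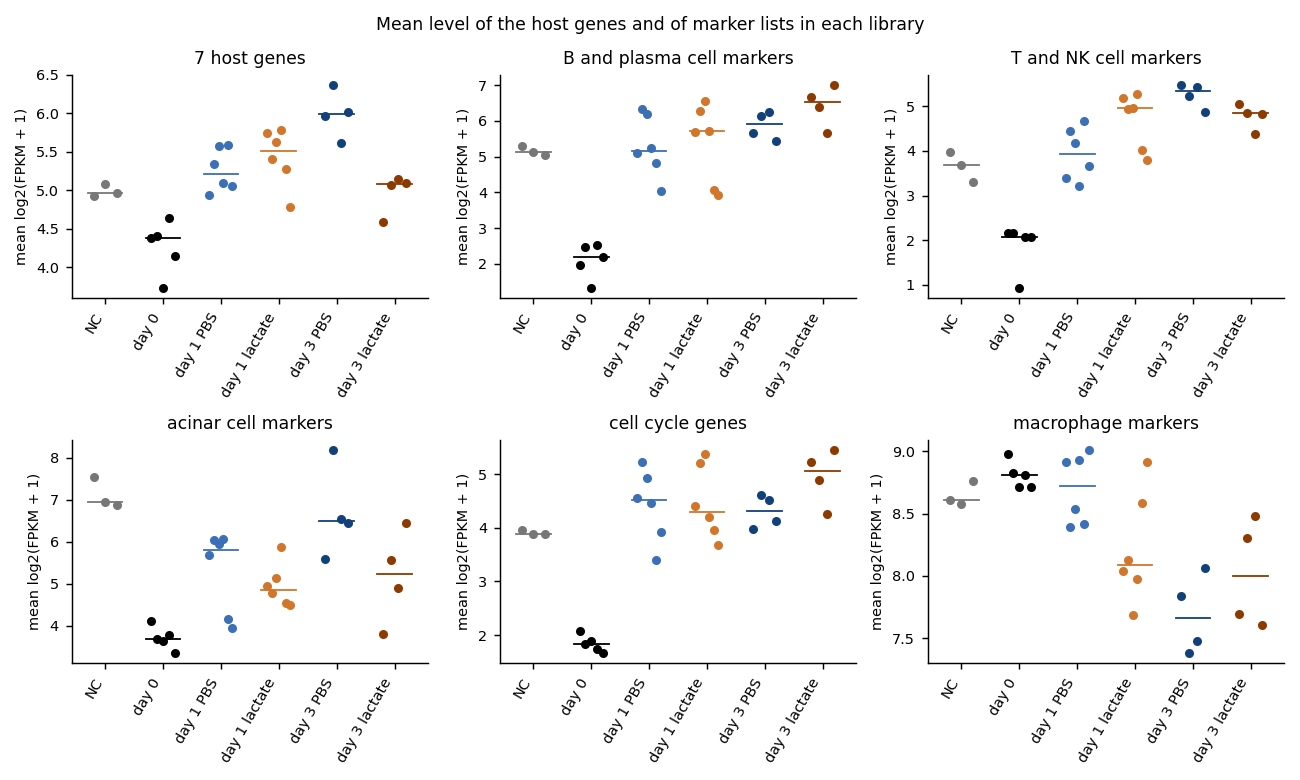
Mean log2(FPKM + 1) (vertical axes, not from 0) of the 7 host genes and of 5 marker lists in each library, by group; points are libraries and lines are group medians. Host genes and the B and plasma, T and NK, acinar and cell cycle lists all have their lowest group median at day 0. The cell cycle list has its highest group median in day 3 lactate and the host genes in day 3 PBS.

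From NC to day 0 and from day 0 to day 1 PBS, the other noncoding snoRNA hosts that were called moved in the same direction as the 7. There are 15 rows, of which 13 were tested. Of these 13, 9 fell at day 0 against NC, where 41.4% of all genes were called lower. From day 0 to day 1 PBS 10 rose, where 43.0% of all genes were called higher. In day 3 PBS 8 were called higher than in day 1 PBS, as were 21.5% of all genes. Against NC 4 were called higher in day 3 PBS, as were 10.3% of all genes. In the day 0 and day 1 PBS steps no call among the 13 went the other way. The day 3 PBS libraries served to choose the 7, so nothing is read from the day 3 counts. Epb41l4aos fell from 12.5 ± 1.41 FPKM (SD, n = 3) in NC to 4.81 ± 1.97 (n = 5) at day 0 (log2 fold change -1.29, adjusted p = 2.1e-05) and rose again at day 1 (1.33, adjusted p = 1.0e-06). Snhg5 fell by 0.88 (adjusted p = 0.0045) and rose by 0.91 (adjusted p = 6.2e-04) in the same steps. Snhg4, Snhg20 and Snhg16 were higher in day 3 PBS than in day 1 PBS by 0.85, 0.76 and 0.68 on the log2 scale. At day 3, 13 of 13 lay below 0 with lactate, with a median of -0.68, and 6 did not overlap: Snhg4, Snhg7, Snhg15, Snhg16, Snhg20 and Epb41l4aos. Over all genes 4.33% were lower without overlap. At day 1 limma called 0 of the 13 between lactate and PBS, and 1 had an unadjusted p under 0.05.

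The protein-coding snoRNA hosts, mostly ribosomal protein and translation factor genes, mostly fell and rose in the first 2 steps and were seldom called in the third. Of 25 tested, 14 fell and 2 rose at day 0 against NC, 21 rose and 2 fell at day 1 PBS, and 2 rose from day 1 to day 3 PBS. Over all genes 41.4% were called lower at day 0, 43.0% higher at day 1 PBS and 21.5% higher from day 1 to day 3 PBS. Eef1b2, a translation elongation factor subunit, fell by 0.91 (adjusted p = 7.6e-05) and then rose by 1.10 (adjusted p = 4.8e-07). The 2 that went the other way at day 0 were Hspa8, the constitutive Hsp70 chaperone, and Eif4a1, the cap-complex helicase, which rose by 1.13 (adjusted p = 1.1e-06) and 0.82 (adjusted p = 4.8e-06). Eif4a2 and Nop56 rose from day 1 to day 3 PBS, by 0.61 (adjusted p = 0.0026) and 0.87 (adjusted p = 0.0062). At day 3 the median of the 25 with lactate was -0.23, with 23 below 0 and 1 without overlap.

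Few genes of the proteins that package snoRNAs were called in the first 2 steps. Of 18 snoRNP core and assembly genes, 1 was called at day 0, Nufip1, which rose by 0.31 (adjusted p = 0.0093), and 1 rose and 3 fell at day 1 PBS. From day 1 to day 3 PBS 7 rose, where 21.5% of all genes were called higher. Among the 7 were the box C/D core proteins Nop56 and Nop58 (0.86, adjusted p = 0.010) and the nucleolar chaperone Nolc1 (0.77, adjusted p = 0.011). Their median with lactate at day 3 was -0.08 beside -0.95 for the 7 host genes, and the groups overlapped for each of the 18.

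Factors of nonsense-mediated decay, the route that removes spliced Gas5, went in both directions: 5 of 16 rose and 3 fell at day 0, and 3 rose and 5 fell at day 1 PBS. Of 11960 genes tested, 2361 were called higher and 4948 lower at day 0, and 5147 higher and 2374 lower at day 1 PBS. Magohb and Rbm8a, partners in the exon junction complex, rose at day 0 by 1.40 (adjusted p = 1.9e-04) and 0.72 (adjusted p = 1.2e-04) and fell at day 1 by 1.53 (adjusted p = 6.4e-06) and 0.61 (adjusted p = 8.2e-05). Casc3, also of that complex, went the other way, falling at day 0 by 0.38 (adjusted p = 3.0e-04) and rising at day 1 by 0.27 (adjusted p = 0.0010). Upf3b, which links the complex to the decay factors, did the same, with -0.76 at day 0 (adjusted p = 3.0e-04) and 0.69 at day 1 (adjusted p = 1.0e-04). From day 1 to day 3 PBS 5 of the 16 rose, where 21.5% of all genes were called higher. Magohb rose by 0.93 (adjusted p = 0.0072) and Upf3b by 0.58 (adjusted p = 0.0039). The median of the list with lactate at day 3 was 0.04.

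**Figure D4:**
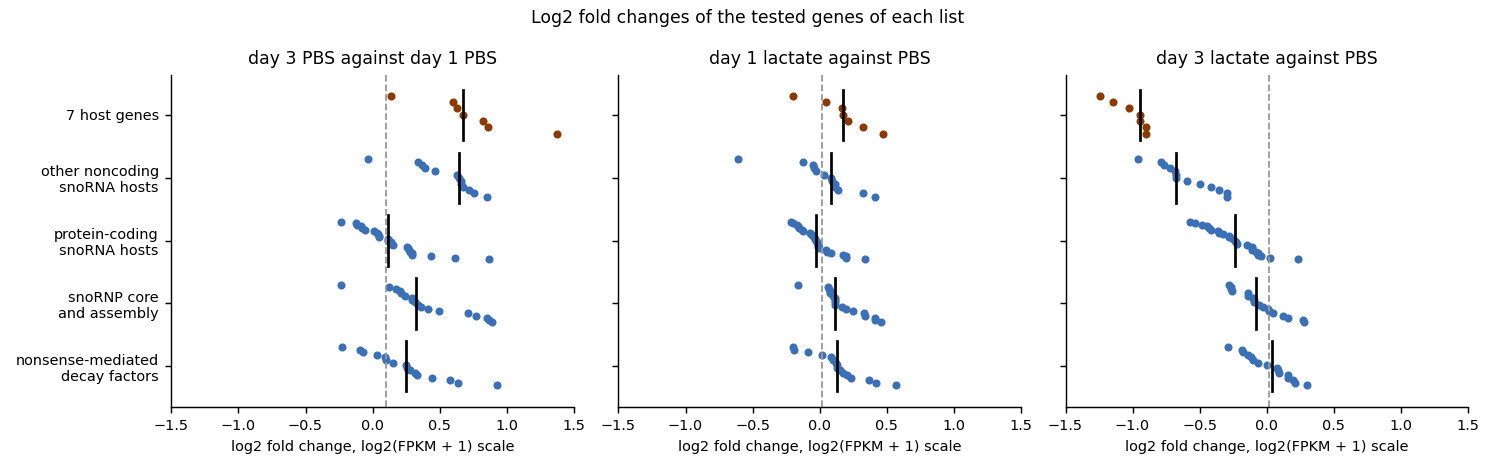
Log2 fold change (horizontal axes, log2(FPKM + 1) scale) of each tested gene of 5 lists in 3 comparisons; points are genes, black lines are list medians and the dashed line is the median of all genes tested. With lactate at day 3 the medians run from -0.95 for the 7 host genes and -0.68 for the other noncoding hosts to -0.23, -0.08 and 0.04 for protein-coding hosts, snoRNP genes and decay factors.

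Around Mir17hg, the regulators and targets of its microRNAs were split. Myc, a driver of the cluster, is named here after its values were seen. It had means of 21.3 ± 1.45 FPKM (SD, n = 3) in NC, 11.8 ± 2.56 (n = 5) at day 0, 17.1 ± 5.68 (n = 6) in day 1 PBS and 37.0 ± 5.90 (n = 4) in day 3 PBS, and 25.04 ± 11.3 (n = 6) and 24.6 ± 5.76 (n = 4) with lactate at days 1 and 3. On the log2 scale Myc differed by -0.83 at day 0 against NC, by 0.48 at day 1 PBS against day 0 and by 1.11 from day 1 to day 3 PBS. These are given with no test, since Myc was picked by its values. Its log2 difference with lactate at day 3 was -0.59, and the groups did not overlap. E2f1, both a driver and a target, rose from day 0 to day 1 PBS (0.71, adjusted p = 1.2e-06), fell from day 1 to day 3 PBS by 0.51 (adjusted p = 9.9e-04) and was lower with lactate at day 1 (-0.37, adjusted p = 0.016). With lactate at day 3 the E2f genes of the list lay the other way from Myc: E2f1 differed by 0.28, E2f2 by 0.51 and E2f3 by 0.20, the last without overlap.

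Of 13 tested genes of this list, 3 rose and 8 fell at day 0, when Mir17hg was low, and 7 rose and 3 fell from day 0 to day 1 PBS, when it rose. Thbs1, a matricellular target, rose by 4.93 (adjusted p = 2.7e-09), from 8.70 ± 4.73 FPKM (n = 3) to 281 ± 62.6 (n = 5), and Cdkn1a, the p21 cell cycle inhibitor, by 2.65 (adjusted p = 7.8e-09). Rbl2 fell by 0.92 (adjusted p = 6.2e-07). From day 1 to day 3 PBS 5 fell, among them Thbs1 by 2.03 (adjusted p = 8.6e-04), and 2 rose, among them Cyld by 0.50 (adjusted p = 0.0033). The list's median with lactate at day 3 was 0.04. Of 11960 genes tested, 2361 rose and 4948 fell at day 0, and 5147 rose and 2374 fell from day 0 to day 1 PBS. From day 1 to day 3 PBS 2569 rose and 1534 fell.

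Of the other microRNA hosts 8 have a row and 2 passed the filter. Mir155hg is the precursor of miR-155, which inflammatory signals induce in macrophages. Like Mir17hg it fell at day 0 (-1.06, adjusted p = 0.0055) and rose at day 1 PBS (0.83, adjusted p = 0.0081). Its mean FPKM was low in these groups, at 1.65 in NC, 0.245 at day 0 and 1.33 in day 1 PBS. From day 1 to day 3 PBS it was higher by 1.13 (adjusted p = 0.0038), with overlap between the groups. With lactate at day 3 it stood at 1.35 ± 0.625 FPKM (SD, n = 4) against 4.11 ± 2.00 (n = 4) in PBS, without overlap. Mir22hg went the other way early, higher at day 0 (0.88, adjusted p = 0.0013) and lower at day 1 (-0.74, adjusted p = 0.0011).

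Neighbouring genes in RefSeq were compared because host RNAs share start regions with them. Slc3a2, the amino acid transporter heavy chain next to Snhg1, rose at day 0 by 1.11 (adjusted p = 3.3e-10) and fell at day 1 PBS by 1.02 (adjusted p = 6.9e-11), the opposite of Snhg1 in both steps. Wdr74 on the other side of Snhg1 did the same (0.54, adjusted p = 0.0081, and -0.67, adjusted p = 2.3e-04), as did Trnau1ap beside Snhg12 (0.32, adjusted p = 0.029, and -0.42, adjusted p = 0.0013). Znfx1, which overlaps Zfas1 and encodes an antiviral helicase, was at 0.87 at day 0 (adjusted p = 0.058), fell at day 1 PBS by 0.91 (adjusted p = 0.019) and was higher with lactate at day 1 (1.10, adjusted p = 0.027). Zbtb37, which overlaps Gas5, moved with it at day 0 (-0.89, adjusted p = 2.0e-05) and at day 1 PBS (0.49, adjusted p = 0.0017). With lactate at day 3, Slc3a2 was at 0.12, Wdr74 at 0.01, Trnau1ap at -0.10 and Zbtb37 at -0.07, beside -1.03 to -0.90 for the hosts they adjoin, and Znfx1 was at -0.53. The sources used here do not say whether counting used the strand, so reads in the overlaps with Znfx1 and Zbtb37 cannot be assigned to 1 gene.

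The likeness of the 7 to each other and to other genes is given as Pearson r of log2(FPKM + 1) over the 28 libraries, with no test, since libraries of 1 group share their condition. The 28 include the day 3 libraries on which the genes were chosen, so r among the 7 is not independent of that choice. Over the 21 pairs r ran from 0.61 to 0.97 with a median of 0.83, and after subtracting group means from 0.24 to 0.94 with a median of 0.67. Gas5 and Snhg1 were closest, at 0.973. The genes most like Snhg8 were the ribosomal protein genes Rps23 (0.974), Rps21 (0.967) and Rps14 (0.966), and ribosomal protein genes were also among the 3 most like Gas5 (Rps24, 0.957), Snhg1 (Rps6, 0.962, and Rps7, 0.949) and Snhg6 (Rps27, 0.915, and Rpl24, 0.899). Snhg6 was closest to Snhg15 (0.918), and Snhg12 to Gas5 (0.958), Snhg1 (0.934) and Epb41l4aos (0.925). Zfas1 and Mir17hg had other company: Pnrc2 (0.909) and Dnajb6 (0.908) were among the 3 most like Zfas1, and Eif4a2 (0.923), Ptbp2 (0.903) and Synj2bp (0.902) were the 3 most like Mir17hg.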

How the data were processed

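Per the labels, macrophages were sorted, RNA was taken with the RNeasy Micro Kit and 10 ng of total RNA entered VAHTS Universal V6 libraries. The deposited table holds the authors' FPKM for each gene; fastp and R 3.2.0 are named in the submitters' processing notes, while the build, aligner and counter were not given in the sources used here. FPKM has no fixed sum, so a gene's value also moves with all others. Whole fragments were recovered for 100% of values of 23500 genes (tolerance 0.0001) to give depth and row lengths. log2(FPKM + 1) was fitted with limma 3.58.1 in R 4.3.3, 1 mean per group over all 28 libraries with trended, robust variances, two-sided, for 11960 genes that reached FPKM 1 in 3 libraries or more. P-values were adjusted by Benjamini-Hochberg over all of them (threshold 0.05). Fold changes on this scale understate those of low genes such as Mir17hg. Other values came from scipy 1.17.1, pandas 2.3.3 and numpy 2.4.6 under Python 3.11.15. The fit was tested on simulated data.

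The genes and gene lists were chosen with earlier results of these data known. All 7 host genes are named; of other lists, up to 3 genes with the smallest p among those called in a comparison, RefSeq neighbours and the 3 genes with the highest r were named, besides those said to be chosen later. No 2 replicates of a group were duplicates (55 pairs, lowest chi-square per degree of freedom 24.5). Alternatives were another pseudocount (0.1), no filter, a filter at FPKM of at least 5, quantile normalization, median-ratio scaling, only the compared groups, a replicate block, each library left out, and, added after seeing the data, day 1 replicates 5 and 6 left out. The host genes' p-values that use day 3 PBS are not printed, since those libraries served to choose the genes. Nothing about the host genes is read from the calls of listed genes in those comparisons. Some genes of the lists are not reported here.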

Additional observations from a re-analysis of the deposited data

Results flagged for a closer look

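In 4 of the 35 sets of values checked (7 genes in the groups of 4 to 6 libraries), 1 library lay far from the others by Dixon's criterion; chance alone marks about 1 in 20 such sets. Zfas1 was at 117 FPKM in day 1 PBS replicate 5, above the others of its group. Snhg1 was at 189 FPKM in day 3 PBS replicate 2, above its group. Snhg6 was at 8.49 FPKM in day 0 replicate 3 and at 10.9 FPKM in day 3 lactate replicate 1, below the others in both groups.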

How the results depend on the processing

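The number of the 7 host genes called at day 0 against NC was 5, 3 with median-ratio scaling and 3 to 5 with 1 library left out. For day 1 PBS against day 0 it was 7, and 5 to 7 with 1 library left out. For the comparisons with day 3 PBS, on which the genes were chosen, no count is given. For lactate against PBS at day 1 it was 0, and 0 to 2, and 2 without replicates 5 and 6 of both groups. The day 3 lactate median of -0.95 ran from -1.11 to -0.82. Directions turned for Snhg6 at day 0 (0.19 with median-ratio scaling and -0.21 to 0.10 with 1 library left out, turned without day 0 replicate 3), Mir17hg at day 1 PBS (-0.0067 with quantile normalization), Snhg8 from day 1 to day 3 PBS (-0.063 to 0.30 with 1 library left out, turned without day 3 PBS replicate 2), Snhg12 with lactate at day 1 (-0.0055, -0.0056, -0.016, -0.034 and -0.064 of values up to 0.18 with 1 library left out) and Snhg8 there (-0.28 to 0.00032 with 1 library left out, turned without lactate replicate 6, and 0.048 without replicates 5 and 6). The cause was not tested.

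Deviations of same-numbered libraries had correlations from -0.53 to 0.61 over the comparisons. Between lactate and PBS at day 1 they were 0.49, 0.61, 0.35 and 0.53 for numbers 2, 3, 5 and 6. For numbers 1 and 4 they were -0.34 and -0.21. Whether the replicate numbers mark pairs or a shared batch cannot be told from these values. With a replicate block 5 host genes were under the threshold at day 0 against NC, 7 at day 1 PBS against day 0 and 0 with lactate at day 1. Snhg8 from day 1 to day 3 PBS was then at -0.032.

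Median-ratio scaling and quantile normalization moved the median of all genes by 0.25 and 0.27 at day 0 against NC, by -0.22 and -0.23 at day 1 PBS against day 0 and by -0.11 and -0.11 from day 1 to day 3 PBS. With median-ratio scaling and quantile normalization 3625 and 2835 genes were called higher and 4263 and 3666 lower at day 1 PBS against day 0, in place of 5147 and 2374, and 1662 and 1771 higher and 2186 and 2185 lower from day 1 to day 3 PBS, in place of 2569 and 1534. With quantile normalization at day 0 the split was 3558 and 2755. With lactate at day 1, 616 genes were called with no filter and 0 with only the compared groups, in place of 1162.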
